A study of Homo sapiens with 6 samples.

Results

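Of 14686 transcribed regions read in human embryonic stem cells and in endoderm made from them, 4318 carried a running number in place of a gene name. Of these, 1940 had no named region within 50 kb of their midpoint on either strand, and these distant unnamed regions are described here. The rule left aside 2375 unnamed regions that lie closer to a name and 3 on the mitochondrial genome, and 10368 regions carried a name. The rule used position alone and no signal value. Distance to the nearest named region ran from 50.1 kb to 8984 kb, with a median of 195 kb. The 50 members just inside the limit lay at 50.1 to 52.8 kb and had a median mean signal of 15.0, and the 50 unnamed regions just outside it lay from 47.2 kb up to the limit, with a median of 17.0.

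Reads taken at the 3′ end of polyadenylated RNA pile up where transcripts end, so a pile without a gene name can mark the end of a long noncoding RNA, an unannotated end of a longer gene, or a transcribed pseudogene. Long noncoding RNAs are usually less abundant and more restricted to a cell type than messenger RNAs, and several are known from pluripotent cells. Processed pseudogenes are copies of messenger RNAs put back into the genome, and short reads do not always tell a copy from its parent gene.

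The libraries came from H9, an established hESC line, at passage 51, and held polyadenylated RNA read at its 3′ ends. The 3 hESC libraries, grown on matrigel in medium conditioned by mouse embryonic fibroblasts, are labelled G1 (0 h), G1/S (2 h) and S (3 h). The 3 endoderm libraries, from hESCs kept 6 days in activin A at 100 ng/ml, are labelled G1 (0 h), G1/S (3 h) and S (6 h). Fetal bovine serum in the endoderm medium was 0%, then 0.2%, then 2%, with a change of medium on day 3, so cell type, serum and medium cannot be told apart. Each type and phase had 1 library, all from 1 line, and how cells were brought into phase is not given in the sources used here.

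Library totals ran from 2502792 to 6203079 reads, and the hESC libraries gave 58.1% of all reads. Signal is the number of reads divided by 1 size factor per library, so 1 read is worth 0.591 to 1.71, and a count of 0 allows a signal of up to 1.77 to 5.13 (3 reads, counting error only). Signals of a region are given below in the order G1, G1/S, S within each type. Of 9 listed markers of definitive endoderm, among them SOX17 and FOXA2, 8 were measured and all 8 were higher in endoderm. Their summed signal was 442 to 533 in hESCs and 8279 to 17230 in endoderm. Of 7 measured hESC markers, 2 were lower in endoderm. COL1A1 and THY1, the 2 measured of 3 genes listed as fibroblast markers, were both lower. Their summed signals were 5052 to 9017 in hESCs against 1754 to 3300 in endoderm. The trophoblast marker KRT7, the 1 measured of 3 listed, was lower too (160 to 249.9 against 22.8 to 56.5). Of the neural markers PAX6 and NES, 1 was higher, with overlapping sums, and the mesoderm marker TBX6 was not called. Bulk signal does not show which cells expressed these genes, and the part of any other cells in the differences below was not tested.

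The distant unnamed regions were weak. Their mean signal over the 6 libraries had a median of 16.7 and middle 50% of members between 11.2 and 29.8, against a median of 66.6 for named regions and 18.3 for unnamed regions closer to a name. A mean signal of at least 100 was reached by 123 members (6.34%) and by 41.6% of named regions, and a mean of at least 1000 by 12 members. Like the unnamed regions closer to a name (median width 141 bases), they were narrower than named regions, with a median width of 146 bases against 205, and per 100 bases of width their median signal was 11.9 against 32.7. The fewest reads any member had over the 6 libraries was 60 and the median was 111, and 249 members (12.8%) had 0 reads in at least 1 library. Members held 2.63% to 2.91% of the reads of the hESC libraries and 2.21% to 2.41% of the endoderm libraries, groups that did not overlap, also without the 10 strongest members (1.76% to 2.12% and 1.38% to 1.71%).

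**Figure D1:**
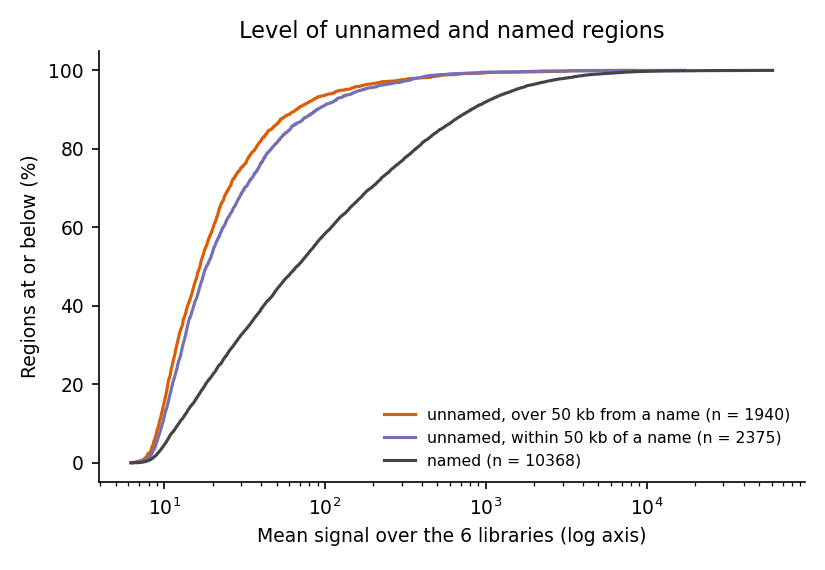
Cumulative share of regions (%) against mean signal over the 6 libraries (log axis) for distant unnamed regions, unnamed regions within 50 kb of a name, and named regions. The curve of the distant unnamed regions lies farthest left, with its median at 16.7 against 66.6 for named regions.

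A few members were among the strong regions of the table, and 10 of them held 28.9% of all reads of the 1940 members. The strongest, NOVEL_1984 (hg18 chr19:12232182-12232306, plus strand), read 6880.0, 10971 and 3063 in hESCs and 3574, 16079 and 9664 in endoderm. It lies in a cluster of zinc finger genes between ZNF136 and ZNF564, where RefSeq places 9 pseudogenes. Its signal was highest at G1/S in both types, and the types overlapped.

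NOVEL_672 (chr5:130353801-130353926, plus) read 539, 5857 and 2025 in hESCs and 3758, 5824 and 5044 in endoderm. NOVEL_4094 (chr18:70208192-70208367, minus) read 706, 4342 and 1613 in hESCs and 2888, 4192 and 4039.5 in endoderm. These members on different chromosomes shared a low hESC G1 library and a high G1/S library in both types. NOVEL_3156 (chrX:39531104-39531292, minus), between MID1IP1 and BCOR, read 5331, 2916 and 4723 in hESCs and 1966, 2817 and 1953 in endoderm, with every hESC library above every endoderm library. Of the 10 strongest, NOVEL_1902 alone was called between the types, and it is described with its run. NOVEL_2965 (chr6:40034183-40034290, minus) had the widest spread of the 10. It read 1995, 90.6 and 4844 in hESCs and 169.9, 84.8 and 159 in endoderm, so its hESC G1/S library lay with the endoderm libraries. Its log2 difference of −2.85 (SE 0.78) just missed the threshold (limma adjusted p = 0.0503). The others of the 10 (NOVEL_1185, NOVEL_1381, NOVEL_3378 and NOVEL_290) had mean signals of 2023 to 3223 and log2 differences between −0.47 and 0.49.

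Members were lower in endoderm more often than regions in general. Of the 1929 that passed the filter on low values (11 did not), 267 were called lower in endoderm (13.8%) and 102 higher (5.29%), where a call is a limma adjusted p under 0.05 over all 14657 regions tested. Over all regions tested, 7.6% were called lower and 6.9% higher. Among unnamed regions closer to a name the shares were 5.11% lower and 7.98% higher, and among named regions 7.00% and 6.95%. The median difference of the members, endoderm minus hESC on the log2(signal + 1) scale, was −0.72, against 0.02 over all regions, and it differed by level. It was −1.66 below a mean signal of 10, −0.65 at 10 to 20 and −0.52 at 20 to 50. Named regions had −0.79, −0.06 and 0.06 there, and unnamed regions closer to a name −0.38, 0.44 and 0.62. At 50 to 100 and 100 to 1000 members had 0.10 and 0.07, named regions 0.08 and 0.06, and closer unnamed regions 0.92 and 0.75. Every region had at least 60 reads, so below a mean of 10 an average read was worth less than 1. In endoderm G1/S and S 1 read is worth 1.66 and 1.71, so that level selects for few reads there. Fewer cells that express a region and less RNA per cell cannot be told apart in bulk libraries. The median member had a signal of 18.3 to 19.3 in the hESC libraries and 10.4 to 13.3 in the endoderm libraries, while the median named region had 53.1 to 62.6 and 54.9 to 66.3. The shallowest libraries were endoderm S with 2502792 reads and endoderm G1/S with 3205025. The lowest median, 10.4, was that of endoderm G1 with 5389666 reads. Members without a read numbered 53 to 144 per endoderm library and 3 to 45 per hESC library, with the most in endoderm S. The part of depth in the calls was not tested. These p-values are set against how far the 6 libraries of 1 line depart from a type difference that is equal over the phases. That departure has 2 residual degrees of freedom per region, moderated by 5.46 prior degrees of freedom drawn from all regions. It may be technical.

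The excess of lower calls was present at each level of signal below 1000. Among members with a mean of 20 to 50, 20.8% were lower, against 8.46% of named regions at that level, and at 50 to 100 the shares were 24.0% and 8.76%. At 100 to 1000 they were 18.9% and 7.59%, and at 10 to 20 they were 9.24% and 5.19%. Higher calls made up 15.3% of members and 8.74% of named regions at a mean of 100 to 1000, 11.6% and 8.63% at 50 to 100, 7.38% and 6.41% at 20 to 50, and 3.39% and 2.54% at 10 to 20. Level by level from 10 to 1000, calls in both directions were thus more frequent among members than among named regions. Higher calls were more frequent still among unnamed regions closer to a name, at 18%, 16.6%, 9.57% and 4.8% from the highest of these levels down. Lower calls in those closer regions, at 6.5%, 4.37%, 7.45% and 4.1%, were less frequent than among members. All 3 endoderm libraries lay below all 3 hESC libraries for 690 members (35.6%), where 18.6% of all regions did so. They lay above them for 206 members (10.6%), where 14.7% of all regions did so. The counts depended on single libraries. Without the hESC G1/S library 46 members were lower (2.38% of members, 1.34% of all regions) and 40 higher (2.07%, against 1.52%), and without the endoderm G1/S library 74 were lower (3.84%, against 2.24% of all regions) and 39 higher (2.02%, against 1.65%). The share higher, below that of all regions with 6 libraries, was above it in these fits. Leaving out hESC G1, hESC S or endoderm S left 154 (7.98%, against 6.10% of all regions), 91 (4.72%, against 2.59%) or 146 (7.57%, against 4.09%) lower. The same fits left 126 (6.53%, against 9.16% of all regions), 72 (3.73%, against 4.07%) or 64 (3.32%, against 4.10%) higher. Without endoderm G1 100 were higher (5.18%, against 8.27%), so the share higher stayed below that of all regions when a G1 or S library was left out. Of the calls, 27 of 267 lower and 21 of 102 higher were made in each of the 6 fits that leave out 1 library.

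**Figure D2:**
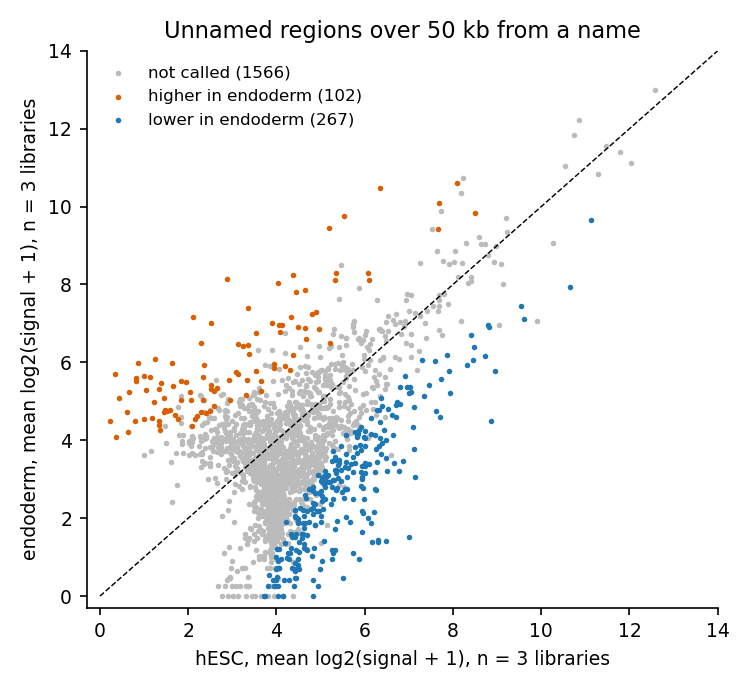
Mean log2(signal + 1) over the 3 endoderm libraries against that over the 3 hESC libraries, 1 point per distant unnamed region, coloured by call (5 members on Y not drawn). The 267 regions called lower lie below the dashed line of equality, and the 102 called higher lie above it, many with an hESC mean near 0.

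The members highest in endoderm relative to hESCs were nearly silent in hESCs. NOVEL_612 (chr5:9892246-9892501, plus), 426 kb from CCT5, read 0, 1.04 and 0 in hESCs and 60.1, 44.9 and 49.6 in endoderm. The endoderm minus hESC difference was 5.36 on the log2 scale (SE 0.67, adjusted p = 0.00491 in limma, as for the differences that follow). All its hESC values were within what a count of 0 allows, and its endoderm libraries lay close together. Between its flanking names SEMA5A and CCT5, RefSeq places 10 long noncoding RNA genes.

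NOVEL_4049 (chr17:70146993-70147349, minus), 129.7 kb from SLC9A3R1, read 5.30, 6.25 and 7.68 in hESCs and 366, 496 and 122 in endoderm, a difference of 5.26 (SE 0.51, adjusted p = 0.00302). It was the strongest of the 10 members named in this direction, with a mean signal of 167. Between its flanking names lies the CD300 cluster of immunoglobulin-like receptor genes. NOVEL_3366 (chr9:136325651-136325850, minus), between WDR5 and RXRA, read 4.54, 4.16 and 1.77 in hESCs and 136, 278 and 75.3 in endoderm, a difference of 5.06 (SE 0.44, adjusted p = 0.00221). RXRA, which encodes a nuclear receptor of retinoids and is the nearest named region at 146 kb, had a difference of −0.82 (adjusted p = 0.13) and so was not called.

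NOVEL_3781 (chr14:100828906-100829138, minus) lies in the imprinted DLK1 to DIO3 domain, known for noncoding RNAs expressed from the maternal chromosome. It read 0.757, 1.04 and 1.18 in hESCs and 51.8, 51.6 and 44.5 in endoderm, a difference of 4.66 (SE 0.58, adjusted p = 0.00482). DIO3AS, the antisense transcript of the thyroid hormone deiodinase gene DIO3 and the nearest named region at 265 kb, rose by 4.94 (adjusted p = 0.0022). NOVEL_1225 (chr10:3981323-3981546, plus), 170.0 kb from the zinc finger transcription factor gene KLF6, read 1.51, 0 and 0 in hESCs and 49.7, 21.6 and 32.5 in endoderm, and KLF6 itself rose by 2.37 (adjusted p = 0.0055). NOVEL_817, NOVEL_3308, NOVEL_2666, NOVEL_4058 and NOVEL_2723 make up the 10, with log2 differences of 4.58 to 5.14. In all 10 the 3 endoderm libraries lay above the 3 hESC libraries. The calls of NOVEL_2666, NOVEL_4058 and NOVEL_3781 were lost without the endoderm G1/S library (adjusted p = 0.0526, 0.0571 and 0.0507). The call of NOVEL_1225 was lost without endoderm G1/S or endoderm S (0.064 and 0.0744), and that of NOVEL_2723 without either G1/S library or endoderm S (0.0554, 0.0906 and 0.0525).

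The members lowest in endoderm were moderately strong in hESCs and near 0 in endoderm. NOVEL_3550 (chr11:115602114-115602306, minus) read 147, 155 and 89.8 in hESCs and 2.07, 6.65 and 0 in endoderm, a difference of −5.48 (SE 0.54, adjusted p = 0.00326). Its neighbour on the same strand, NOVEL_3551 (chr11:115750895-115751087), read 143, 69.8 and 46.1 in hESCs and 1.38, 6.65 and 0 in endoderm (log2 difference −4.89, SE 0.66, adjusted p = 0.00604). Both lie between CADM1, a cell adhesion gene, and ZNF259, an interval in which RefSeq places 15 long noncoding RNA genes.

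NOVEL_2942 (chr6:22329057-22329248, minus), 622 kb from the transcription factor gene SOX4, read 56.0, 93.7 and 69.1 in hESCs and 2.07, 4.99 and 0 in endoderm (log2 difference −4.78, SE 0.61, adjusted p = 0.00521), while SOX4 differed by −0.16 (adjusted p = 0.79). RefSeq places the long noncoding RNA genes CASC15 and NBAT1 in this interval. NOVEL_1590 (chr13:90199132-90199235, plus), 3658 kb from any named region, read 25.0, 86.4 and 40.2 in hESCs and 0, 1.66 and 0 in endoderm (log2 difference −5.03, SE 0.65, adjusted p = 0.00536). NOVEL_2340 had 0 reads in all 3 endoderm libraries and 68.1, 13.5 and 21.9 in hESCs, which is at least 8.48-fold lower in endoderm when its 3 libraries are set at 3 reads each. PRKAB2, its nearest named region at 83.6 kb, was called the opposite way, with a rise of 2.17 (adjusted p = 0.042).

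NOVEL_3486 (chr11:27594854-27595047, minus), in an interval that holds BDNF and its antisense gene, read 188, 2.08 and 342 in hESCs and 0, 1.66 and 1.71 in endoderm. Its hESC G1/S library lay with the endoderm libraries, and its difference of −4.92 had an SE of 1.34 (adjusted p = 0.0498). That call was lost without hESC G1, hESC S or endoderm S (adjusted p = 0.0918, 0.161 and 0.0818) and with an added constant of 4 or 0.5. NOVEL_2568, NOVEL_2564, NOVEL_1356 and NOVEL_1731 make up the 10, with differences of −5.08 to −4.63, and in all 10 the 3 endoderm libraries lay below the 3 hESC libraries. Without the hESC G1/S library the calls of NOVEL_2568, NOVEL_1590, NOVEL_1356, NOVEL_1731 and NOVEL_2340 were lost (adjusted p = 0.0576, 0.0537, 0.0663, 0.0599 and 0.0567). Without hESC S the calls of NOVEL_2564 and NOVEL_2340 were lost (0.0607 and 0.0514), and without hESC G1 that of NOVEL_2340 (0.0911).

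Many members lay within the reach of a named gene. With gene lengths from GENCODE 29, 447 members (23.0%) lay upstream of a named 3′ end on its strand by less than that gene's length, as an intronic or early end would. A further 72 lay so on the opposite strand, and 1421 did neither. Lengths were taken by name from the GRCh38 annotation and distances from the deposited hg18 positions. Of the same-strand members 67 were lower (15.1%) and 4 higher (0.903%), with a median difference of −1.28. Of the members that did neither, 195 were lower (13.8%) and 97 higher (6.86%), with a median of −0.42, and of the opposite-strand members 5 were lower and 1 higher, with a median of 0.04. The lower calls were thus not confined to members within a named gene's reach, and the higher calls came mainly from outside it. Genes without a named region were not counted in this.

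The direction of a member and of the gene it lay in matched only in part. For 443 same-strand members with a tested gene (266 genes), the log2 differences of member and gene had a Spearman rho of 0.31, and of 71 called members the gene was called the same way for 18 and the opposite way for 0. For 1412 members outside the reach of any named gene and their nearest named region, rho was 0.04. Of 292 called members of that kind, the nearest name was called the same way for 32 and the opposite way for 24. These pairs share libraries and some share a gene, so the values describe these regions only. Farther members were more often lower, with 10.9% at 50 to 100 kb, 11.0% at 100 to 250 kb, 14.2% at 250 to 500 kb and 21.2% beyond 500 kb. Higher calls were at 2.92%, 5.80%, 6.3% and 6.51% over the same classes.

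Most of the intervals that hold members contain genes that RefSeq lists and the table does not name. For 1728 members (89.1%) both flanking names could be placed in the gene order of GRCh38.p14. A long noncoding RNA gene lay between the flanks for 1598 of them, a pseudogene for 1562 and a protein-coding gene for 1437. Distance from a named region is therefore not distance from a gene. Members made up 27.9% of the regions on chromosome 13 and 22.7% on chromosome 4, and 3.72% on chromosome 19.

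Many distant unnamed regions lay close to each other. Neighbours up to 50 kb apart joined 840 members (43.3%) into 316 runs, and 1100 stood alone. Of the runs, 189 had 2 members, 77 had 3 and the longest had 8, and 227 lay on 1 strand. The median span was 12.4 kb and the longest 139 kb. Members in runs were called in 21.6% of cases and single members in 17.2%, both directions together. Over all regions tested, 7.6% were called lower and 6.9% higher. In 49 runs at least 2 members were called, all lower in 37, all higher in 10 and in both directions in 2. The same count for runs of other regions is not given here.

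Adjacent members on 1 strand had similar differences. In 411 such pairs up to 50 kb apart, rho of the log2 differences was 0.70 and 83.0% had the same sign. When the first of a pair was called, which held for 102, the second was called the same way in 52 and the opposite way in 0. In 104 pairs on opposite strands rho was 0.21, and in 1381 adjacent pairs more than 50 kb apart it was 0.08. Neighbours in a run may be ends of 1 transcript, so these pairs are not independent measurements.

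**Figure D3:**
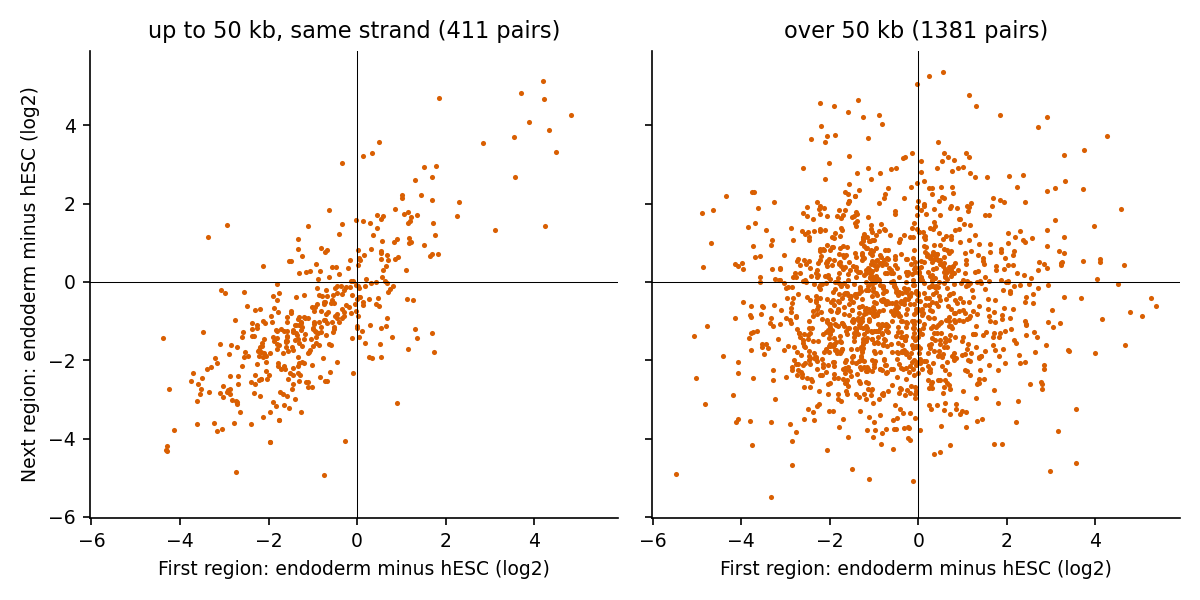
Log2 difference, endoderm minus hESC, of each distant unnamed region against that of the next one along the chromosome, 1 point per pair. Pairs up to 50 kb apart on 1 strand (left) follow the diagonal with rho 0.70, and pairs over 50 kb apart (right) scatter around 0 with rho 0.08.

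In the run with the most members, 6 of 8 rose in endoderm. It spans chr9:2160705-2278947, with 7 of its 8 members on the minus strand, between KANK1 and KIAA0020, an interval in which RefSeq also places the chromatin remodelling gene SMARCA2 and the lipoprotein receptor gene VLDLR. Its summed signal was 47.7, 45.8 and 56.1 in hESCs and 449, 353 and 447 in endoderm. All 8 differences were above 0. NOVEL_3305, its strongest member, read 14.4, 19.8 and 15.4 in hESCs and 134, 153 and 94.1 in endoderm (log2 difference 2.85, SE 0.35, adjusted p = 0.00482). NOVEL_3308 read 3.03, 0 and 2.36 in hESCs and 90.5, 28.3 and 116 in endoderm (log2 difference 4.83, SE 0.52, adjusted p = 0.00369). NOVEL_3306, NOVEL_3307, NOVEL_3309 and NOVEL_3311 were the others called, with differences of 2.22 to 4.25, and each lost its call without at least 1 library. NOVEL_3310 and the plus-strand NOVEL_1135 had differences of 1.43 and 1.02 and were not called.

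In a run of 7 on chromosome 5, 4 members fell. It spans chr5:93556807-93661079 between KIAA0686 and RHOBTB3, with 6 members on the minus strand. Summed signal was 649.9, 651 and 515 in hESCs and 98.7, 143 and 130.1 in endoderm. NOVEL_2848, the strongest, read 192, 269 and 175 in hESCs and 23.5, 34.9 and 15.4 in endoderm (log2 difference −3.10, SE 0.33, adjusted p = 0.00342). NOVEL_2847, NOVEL_2850 and NOVEL_2851 were also called, with differences of −2.91 to −2.71. The first 2 of these lost their call without the hESC G1/S library (adjusted p = 0.0537 and 0.0762), and NOVEL_2850 also without endoderm G1/S (0.0564). The plus-strand NOVEL_657 differed by 1.66 and was not called. RHOBTB3, the nearest named region of all 7, was called the opposite way to the 4 members that fell, with a rise of 4.53 (limma adjusted p = 0.0022).

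**Figure D4:**
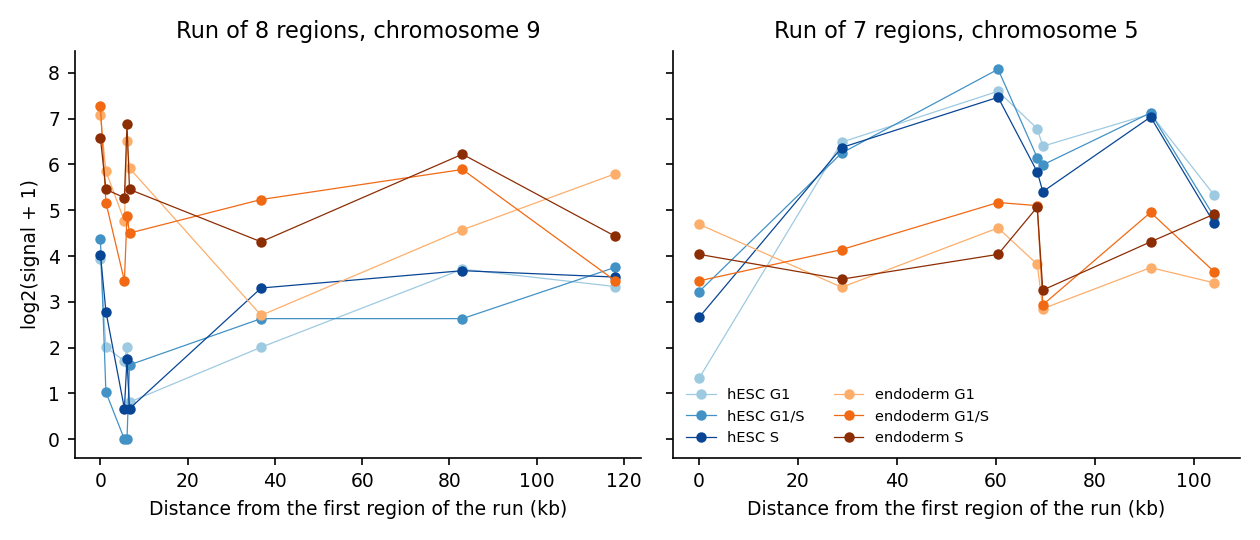
Log2(signal + 1) of each region in the 2 runs with the most members against its distance in kb from the first region, 1 line per library. In the run of 8 on chromosome 9 the endoderm libraries (orange) lie above the hESC libraries (blue) at 6 called regions, and in the run of 7 on chromosome 5 they lie below them at 4 called regions.

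A strong run with every member called lower holds 3 members on the minus strand at chr6:14388362-14395551, between CCDC90A and JARID2, and RefSeq places the long noncoding RNA gene LINC01108 in that interval. Its summed signal was 2621, 1252 and 2676 in hESCs and 399, 379 and 274 in endoderm. NOVEL_2933 read 2168, 852 and 2239 in hESCs and 287, 269.5 and 192 in endoderm (log2 difference −2.70, SE 0.37, adjusted p = 0.0062). NOVEL_2934 (−1.67, SE 0.29) and NOVEL_2935 (−2.87, SE 0.40) fell too, with no overlap between the types. NOVEL_2934 lost its call without either G1/S library (adjusted p = 0.0805 and 0.0706).

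On chromosome 17 a still stronger run, a pair of plus-strand members at chr17:59576982-59577849, fell as well, 143 kb from ICAM2. NOVEL_1902 read 4771, 1904 and 1209 in hESCs and 720.1, 1194 and 599 in endoderm (log2 difference −1.47, SE 0.39, adjusted p = 0.0468). NOVEL_1903 read 74.1, 69.8 and 41.3 in hESCs and 8.98, 11.6 and 5.13 in endoderm (log2 difference −2.73, SE 0.41, adjusted p = 0.00882). RefSeq places the small nucleolar RNA host gene SNHG25 between the flanking names, and ICAM2, an adhesion molecule gene, fell by 3.46 (adjusted p = 0.0086). The calls of NOVEL_1902 and NOVEL_1903 were lost without the hESC G1/S library (adjusted p = 0.0873 and 0.0652), and that of NOVEL_1902 also without endoderm G1/S (0.0789).

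Other long or strong runs showed no call or few. The run of 6 at chr13:92666569-92745528, of which NOVEL_1592 alone lay outside the reach of the proteoglycan gene GPC6, had 3 members called lower, and its strongest, NOVEL_1597, read 453, 519.5 and 381 in hESCs and 87.0, 223 and 85.6 in endoderm (log2 difference −1.91, SE 0.32, adjusted p = 0.012). The calls of NOVEL_1594 and NOVEL_1596 in that run were lost without 1 library, for NOVEL_1594 any of the 6. The run of 7 at chr3:61634967-61773954, within the reach of the receptor phosphatase gene PTPRG, had no member called. Its 6 plus-strand members had differences of −2.15 to −1.07, and the minus-strand NOVEL_2628 had 0.21. The run of 7 at chr22:26392576-26474337 had NOVEL_4244 and NOVEL_4245 called lower, and both lost the call without either G1/S library and without hESC S, and NOVEL_4244 also without endoderm S. The run of 5 at chr9:132035178-132039364 was steady, with a summed signal of 675, 1044 and 713 in hESCs and 704, 1088 and 1138 in endoderm. The run of 3 at chrX:132262137-132264196 read 74.1, 218 and 875 in hESCs and 1528, 654 and 999.6 in endoderm, and none of its members was called. 1 further run among the 5 strongest lies on Y and is not described.

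No member was called between phases. For G1/S against G1, S against G1 and S against G1/S, limma called 0 of 1929 members at an adjusted p under 0.05, and 0% of all regions. At an unadjusted p under 0.05 there were 174 members (9.02%, against 13.7% of all regions), 59 (3.06%, against 3.39%) and 93 (4.82%, against 10.6%). edgeR called 0 in each, and DESeq2 called 11 for G1/S against G1, 0 for S against G1 and 6 for S against G1/S. Without the hESC G1 library limma called 22 members for G1/S against G1 and 15 for S against G1/S. Without endoderm G1 it called 20 for G1/S against G1, 20 for S against G1 and 5 for S against G1/S, and without endoderm S 6 for S against G1/S. Shares of all regions called in the edgeR, DESeq2 and left-out-library fits are not given here, so these counts cannot be set against them. The phase terms assume that both types change alike, and with 1 library per type and phase a difference within a type has no test.

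The members with the smallest p for G1/S against G1 were low in G1 of both types. NOVEL_3644 (chr12:78665881-78666001, minus), 78.5 kb from PPP1R12A, read 4.54, 67.7 and 29.5 in hESCs and 2.07, 56.6 and 37.7 in endoderm. Its G1/S minus G1 difference was 3.93 (SE 0.56, adjusted p = 0.36). NOVEL_1854 (chr17:19704738-19704898, plus) read 21.2, 108 and 109.9 in hESCs and 3.45, 28.3 and 22.3 in endoderm, so both later phases lay above G1 in each type, and it was also lower in endoderm (log2 difference −2.16, adjusted p = 0.015). That call was lost without either G1/S library and without hESC S (adjusted p = 0.0815, 0.0631 and 0.0658). NOVEL_290 (chr2:87601837-87602133, plus) read 913, 2187 and 1650.4 in hESCs and 858, 3148 and 3382 in endoderm, the strongest member of this kind. NOVEL_129 and NOVEL_2791 had differences of 2.42 and 2.76.

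In the other direction NOVEL_113 (chr1:97784134-97784359, plus) read 97.6, 10.4 and 26.6 in hESCs and 191, 41.6 and 187 in endoderm, the lowest value of each type lying at G1/S (−2.64, SE 0.52, adjusted p = 0.36). NOVEL_1288, NOVEL_2649, NOVEL_2681 and NOVEL_426 had G1/S minus G1 differences of −4.48 to −2.02. For S against G1, NOVEL_3871 (chr16:9114469-9114589, minus) read 10.6, 83.3 and 154 in hESCs and 62.1, 119.8 and 224 in endoderm, an ordered series in both types (2.79, SE 0.55, adjusted p = 0.98). NOVEL_1440 read 9.08, 53.1 and 46.7 in hESCs and 10.4, 38.3 and 49.6 in endoderm (S minus G1 difference 2.20, SE 0.49). NOVEL_2983, in the reach of SNX14, read 389, 115 and 144 in hESCs and 268, 159.7 and 122 in endoderm (S minus G1 difference −1.28, SE 0.38). NOVEL_1219, 55.0 kb from the receptor gene NOTCH1, read 164, 154 and 62.0 in hESCs and 15.2, 18.3 and 3.42 in endoderm. Its S minus G1 difference was −1.63 (SE 0.47, adjusted p = 0.98), beside a call between the types of −3.40 (SE 0.38, adjusted p = 0.00403). NOVEL_2811, NOVEL_1001 and NOVEL_4241 had S minus G1 differences of −1.76 to −1.11.

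Counted past 2-fold within a type, members were above both other phases at G1/S more often than all regions, and so were the unnamed regions closer to a name. In hESCs 118 members (6.08%) were over 2-fold above both G1 and S at G1/S, where 2.72% of all regions were, and 190 (9.79%) were below, where 10.3% were. In endoderm 185 (9.54%) were above, where 4.34% of all regions were, and 147 (7.58%) below, where 12% were. Of the unnamed regions closer to a name, 4.38% were above in hESCs and 5.18% in endoderm. In both types at once 10 members (0.515%, all regions 0.225%, closer unnamed regions 0.421%) were above and 24 (1.24%, all regions 2.37%) below. Among members with a mean signal of at least 50, 27 of 269 (10%) were above at G1/S in hESCs, against 2.17% of all regions of that level, and 15 (5.58%) in endoderm, against 2.40%. In both types at once none of these 269 was above, and 2 were below. Under quantile normalisation the hESC count became 223 above and 145 below, so its balance turned. With an added constant of 4 the endoderm counts became 97 above and 94 below, and those in both types 2 and 5.

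S lay over 2-fold above G1 for 321 members (16.5%) in hESCs and 382 (19.7%) in endoderm, where 15.4% and 10.5% of all regions did. The same shares were 40.3% and 12.6% for unnamed regions closer to a name, and 9.50% and 8.35% for named regions. S lay below G1 for 286 (14.7%) and 297 (15.3%), where 10.1% and 12.6% of all regions did. In both types 48 members (2.47%, all regions 1.39%) lay above and 34 (1.75%, all regions 1.44%) below. Among the 269 members with a mean of at least 50, S lay above G1 for 50 (18.6%) in hESCs and 43 (16.0%) in endoderm, against 9.97% and 8.01% of all regions of that level. With few reads per region such counts include sampling noise, and members had a median SE of 0.57 against 0.39 for named regions.

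**Figure D5:**
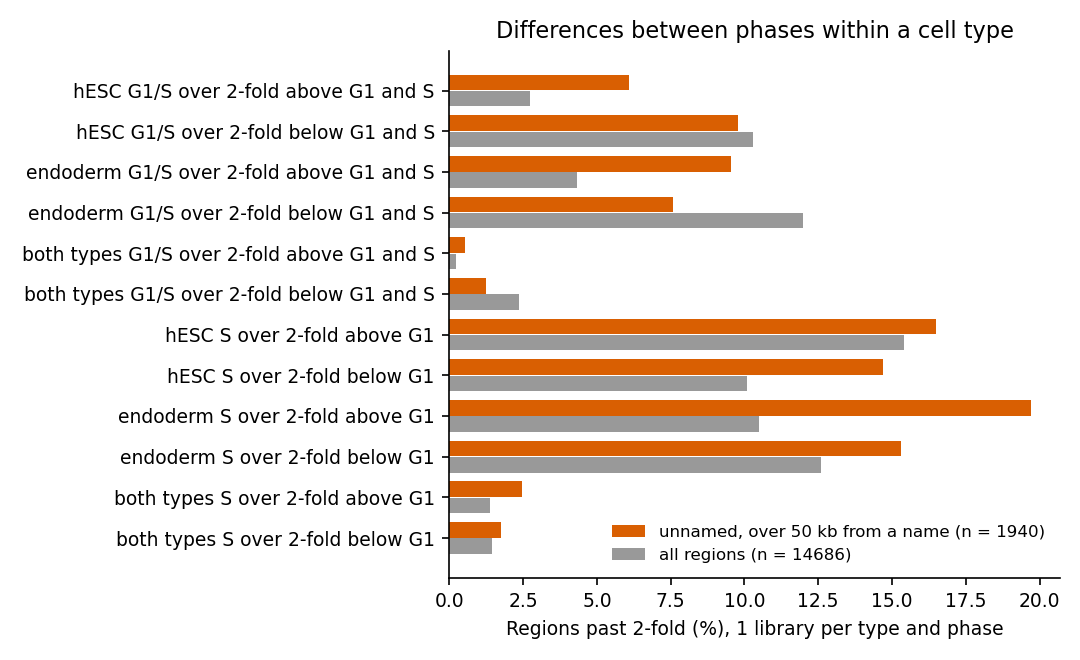
Share of regions (%) past 2-fold between phases within a type, for distant unnamed regions (orange) and all regions (grey), with 1 library per type and phase and no error bars. The orange bars for G1/S above G1 and S, 6.08% in hESCs and 9.54% in endoderm, exceed the grey bars at 2.72% and 4.34%.

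Some members were steady. Among those with a mean signal of at least 100, NOVEL_2526 (chr2:175248972-175249282, minus) had the smallest range, reading 140.0, 95.8 and 124 in hESCs and 104, 119.8 and 140.4 in endoderm. NOVEL_4048 (chr17:57569119-57569302, minus), 138 kb from the Mediator subunit gene MED13, was the strongest of these 5, reading 427, 322 and 276 in hESCs and 249, 318 and 249.9 in endoderm. NOVEL_2253, NOVEL_3522 and NOVEL_2079 had differences between the types of −0.09 to 0.30. In these 5 the range over all 6 libraries was 0.55 to 0.80 on the log2 scale.

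The members farthest from any name were 3 on Y, at 8967 to 8984 kb, whose values are not given. The farthest elsewhere, chosen after values were seen, form a minus-strand run at chr5:25457639-25469846 in a gene-poor stretch between BASP1 and RNASEN, where RefSeq places the cadherin genes CDH10 and CDH9. NOVEL_2808, at 5979.5 kb, read 25.0, 26.0 and 19.5 in hESCs and 4.14, 6.65 and 18.8 in endoderm. NOVEL_2811, in the same run, read 149, 46.9 and 56.7 in hESCs and 11.0, 1.66 and 1.71 in endoderm, a difference of −4.07 (SE 0.46, adjusted p = 0.00403). NOVEL_2809 was called with a difference of −2.99 (adjusted p = 0.0449), a call lost in each of the 6 fits without 1 library, and NOVEL_2810 had a difference of −0.27.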

How the data were processed

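The data are 6 libraries of 3′ end reads, 1 per type and phase. Tools listed without their roles in the submitters' processing notes are DESeq 1.5.24, Bowtie 0.12.7 and CASAVA 1.5, and the builds listed are NCBI36 and hg18. The sources used here do not give how regions were delimited. The authors deposited 1 table of linear signal per region and library, and every value is whole reads divided by 1 constant per library (100% whole at a tolerance of 1e-06). Positions written from high to low were read as the minus strand, which is the GENCODE 29 strand of 99.7% of named regions with a gene length. Gene lengths were found for 92.9% of named regions. RefSeq (GRCh38.p14) gave gene order by name only, and no coordinates were converted. Sequence of the hg18 build was not used here, so exons, introns and base composition are not given.

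Regions with log2(signal + 1) of at least 1 in 3 or more libraries were fitted with limma 3.58.1 in R 4.3.3 (terms for type and phase, eBayes with an intensity trend, Benjamini-Hochberg adjustment over 14657 regions). edgeR and DESeq2 on the recovered reads, other filters, added constants, scalings, distances and left-out libraries were alternatives. Members were named by rule: the 10 largest called differences in each direction without overlap of libraries and with a mean of at least 20 in the higher type, the 10 strongest, the 5 smallest p for a phase in each direction, the 5 longest and 5 strongest runs, the 3 farthest and the 5 steadiest. The members and lists were chosen with earlier results of these data known. A further list held 46 named regions, 1 by the name of a listed long noncoding RNA and the others by names starting with LOC, NCRNA or LINC. Whether the others are noncoding was not checked. Of the 46, 2 were higher and 2 lower (4.35% each, against 6.9% and 7.6% of all regions).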

Additional observations from a re-analysis of the deposited data

Results flagged for a closer look

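Among the members named in the text, 2 moved past 2-fold from G1 to S in opposite ways in the 2 cell types, with 1 library behind each value and no test of the difference. NOVEL_1016, a member of the run at chrX:132262137-132264196, differed by 2.36 on the log2 scale from G1 to S in hESCs and by −1.57 in endoderm, on readings of 12.1 and 66.2 in hESCs and 88.4 and 29.1 in endoderm. NOVEL_1984, the strongest member, differed by −1.17 in hESCs and by 1.43 in endoderm, on readings of 6880.0 and 3063 in hESCs and 3574 and 9664 in endoderm.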

How the results depend on the processing

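Limits are few reads per member (median 111 over 6 libraries) and 1 library per type and phase. The members lower in endoderm (267) numbered 217 to 331 and the members higher in endoderm (102) 83 to 145 under other added constants, quantile normalisation, no filter, edgeR, DESeq2, no intensity trend and no phase term, and stayed within 1.5 times. With a mean of at least 20 asked, 137 were lower and 61 higher, of fewer members tested. Leaving out 1 library gave 46 to 250 lower and 39 to 126 higher, and without both G1/S libraries 51 were lower and 36 higher. The share lower was above that of all regions in each fit. Phase calls left 0 in DESeq2 (11 for G1/S against G1, 6 for S against G1/S), and shares of all regions are not given for phase calls in other fits. Leaving out 1 library gave 0 to 22 for G1/S against G1, 0 to 20 for S against G1 and 0 to 15 for S against G1/S. At over 25 or 100 kb, or over 50 kb on the same strand only, 211 to 313 were lower and 87 to 219 higher (219 of 3044 on the same strand, 7.19%). The share of members in a run of 2 or more was 27.4% with neighbours up to 10 kb, 50.8% up to 100 kb and 36.9% on 1 strand. With an added constant of 4, counts at G1/S in endoderm were 97 above and 94 below, and in both types 2 above and 5 below. Under quantile normalisation 223 were above in hESCs, and in both types 23 above and 13 below. No called difference of a named member changed sign. Pairing by replicate number was not possible because each type and phase has 1 library. The fit itself matches libraries by phase, and without that term 269 were lower and 100 higher. The causes were not tested.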

Other observations

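Several of the strongest members kept a near-constant ratio to a strong named region on another chromosome across the 6 libraries. For each of the 10 strongest members, the named regions at least as strong were ranked by the SD of the log2 ratio over the 6 libraries, a comparison chosen after values were seen, over 36 to 664 candidates per member. The closest of that many candidates will have a small SD to some degree, and no test was made. NOVEL_3156 was closest to GAPDH (chr12:6517552-6517794, plus), the glycolytic enzyme gene, with an SD of 0.08. GAPDH read 14392, 7421 and 11272 in hESCs and 4565, 7395 and 4859 in endoderm, and NOVEL_3156 lay at 37.0% to 43.1% of it in every library. RefSeq places the pseudogene GAPDHP1 in the interval of NOVEL_3156.

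NOVEL_4094 was closest to the ribosomal protein gene RPL14 (chr3:40478498-40478866, plus), with an SD of 0.13. RPL14 read 972, 5692 and 2536 in hESCs and 4101, 7006 and 5637 in endoderm, and NOVEL_4094 lay at 59.8% to 76.3% of it. NOVEL_672 was also closest to RPL14, with an SD of 0.31. NOVEL_1984 was closest to a region named ACTG1 on chromosome 7 (chr7:5533613-5533754, minus), with an SD of 0.20. That region read 33577, 47595 and 11845 in hESCs and 20519, 75054 and 50458 in endoderm, and NOVEL_1984 lay at 17.4% to 25.9% of it.

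NOVEL_2965, with a range of 5.82 on the log2 scale, was closest to TOMM7 (chr7:22828837-22829022, minus), a subunit gene of the mitochondrial import channel, with an SD of 0.28. TOMM7 read 2305, 108 and 5676 in hESCs and 253, 148 and 161 in endoderm, so both had low values in hESC G1/S and all endoderm libraries. NOVEL_3378 was closest to NDUFB9, with an SD of 0.14. Unlike the interval of NOVEL_3156, those of NOVEL_4094, NOVEL_672, NOVEL_1984, NOVEL_2965 and NOVEL_3378 showed no pseudogene symbol formed from that of the closest gene. NOVEL_1902, the called member among the 10, had no region closer than MFGE8, with an SD of 0.51. Whether reads of these members could also be placed at the named regions was not tested, since sequence of the hg18 build was not used here.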
